A study of Mus musculus with 8 samples.

Results

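The genes described here are 9 transcription and chromatin factors of the formative and primed states of pluripotency, Otx2, Pou3f1, Foxd3, Sall2, Sall4, Utf1, Zic2, Zic5 and Grhl2, chosen by name out of the 48440 genes counted in every library. RNA was sequenced from mouse embryonic stem cells of the MK6 line on day 1 of differentiation towards mesoderm, in which the cells were moved from pluripotency medium to N2 and B27 supplements and then received a GSK3 inhibitor to start WNT signalling. There were 4 genotypes at Tbxt with 2 libraries each. WT cells were unedited. Tbxt delE6/delE6 cells lacked exon 6 of Tbxt on both alleles, and the 2 libraries came from different clones. Tbxt delE6/+ cells lacked it on a single allele. Tbxt Insert ASAY cells carried the human AluSx1 and AluY elements on either side of exon 6, an inverted pair with which the exon can be skipped, and came from clones with homozygous integration. All 4 genotypes share the same parental line and the same differentiation, and the insertion was made on feeder cells whereas the deletions were made without them. The study describes the 2 libraries of a genotype as biological replicates, but whether those of the other 3 genotypes came from 1 clone or more is not given in the sources used here, so p-values measure the spread between these libraries and not between independent lines.

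Mouse embryonic stem cells leave the naive state through a formative phase towards the primed state of the late epiblast, and only then respond to signals for the germ layers. Otx2 and Pou3f1 (Oct6) are known for driving this exit by redirecting the core factor Pou5f1 (Oct4) to new enhancers, Foxd3 and Grhl2 for remodelling enhancers during it, and Zic2, Zic5, Sall2, Sall4 and Utf1 for sustaining pluripotent gene expression or preparing genes for later lineages. Tbxt, called T in the annotation, is the T-box factor of the primitive streak that these cells are directed to make next.

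Reads counted on genes ranged from 24618587 to 28445952 per library. Tbxt itself was low at this stage, with 47 and 42 reads in WT, 26 and 22 in Tbxt delE6/delE6, 30 and 29 in Tbxt Insert ASAY and 39 and 54 in Tbxt delE6/+. Gene counts cannot show which exons those reads came from, so they do not check the edited alleles. Tbxt fell in Tbxt delE6/delE6 by 0.81 ± 0.28 on the log2 scale against WT (edgeR quasi-likelihood test, Benjamini-Hochberg adjusted p = 0.0360) and was not called in the other lines. The core factors mark all 8 libraries as pluripotent-type cells, with Pou5f1 between 155.6 and 294.6 CPM and Sox2 between 47.3 and 117.1 CPM, where CPM is the count scaled to a common library size with TMM factors. In bulk RNA, fewer cells of a type and less RNA per cell cannot be told apart.

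Promoter sequence is shown for the called factors that RefSeq promoter windows covered, Foxd3, Sall2 and Utf1. Each window is the 250 bases before a RefSeq start (GRCm38.p6, 5′ to 3′ along the gene). The gene positions printed further below are from GENCODE M21, and for Utf1 and Sall2 the starts differ. The Utf1 window and both Sall2 windows therefore reach into the gene as GENCODE bounds it. Windows were searched on both strands for a T-box core (AGGTGTGA), a TCF/LEF site (ATCAAAG), the octamer that POU factors read (ATGCAAAT), a GC box (GGGCGG) and a CCAAT box (CCAAT), and capitals mark matches. In the Utf1 window the capital run of GGGCGGGGCGG holds 2 GC boxes that share a base.
Foxd3, chr4:99656049-99656298, plus strand: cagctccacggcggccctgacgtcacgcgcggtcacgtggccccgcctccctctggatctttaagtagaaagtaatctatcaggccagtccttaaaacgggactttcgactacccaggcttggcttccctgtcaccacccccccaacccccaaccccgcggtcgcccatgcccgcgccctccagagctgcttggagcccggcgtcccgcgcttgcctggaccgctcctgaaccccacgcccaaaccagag
Utf1, chr7:139943606-139943855, plus strand: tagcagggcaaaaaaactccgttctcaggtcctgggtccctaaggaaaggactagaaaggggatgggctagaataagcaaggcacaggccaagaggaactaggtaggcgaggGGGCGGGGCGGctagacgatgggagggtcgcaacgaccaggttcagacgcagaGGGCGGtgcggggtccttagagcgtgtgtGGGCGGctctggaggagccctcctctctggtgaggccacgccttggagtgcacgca
Sall2, outer start, chr14:52328671-52328920, minus strand: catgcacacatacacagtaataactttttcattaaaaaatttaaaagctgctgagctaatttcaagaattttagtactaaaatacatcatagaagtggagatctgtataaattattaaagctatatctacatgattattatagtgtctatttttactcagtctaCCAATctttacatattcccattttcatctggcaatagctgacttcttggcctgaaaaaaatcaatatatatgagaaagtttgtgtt
Sall2, inner start, chr14:52316324-52316573, minus strand: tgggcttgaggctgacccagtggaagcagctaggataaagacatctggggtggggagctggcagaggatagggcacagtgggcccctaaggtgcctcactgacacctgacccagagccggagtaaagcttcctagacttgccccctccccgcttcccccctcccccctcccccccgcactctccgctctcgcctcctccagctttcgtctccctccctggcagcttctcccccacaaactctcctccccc
The Utf1 window held 4 GC boxes, a motif found in 32.7% of the 32851 mouse promoter windows of the same length, and the outer Sall2 window held 1 CCAAT box, found in 33.8%. The T-box core (1.12% of all windows), the TCF/LEF site (3.21%) and the octamer (1.6%) had no match in the windows of Foxd3, Sall2, Utf1, Otx2 or Zic5, which says only that these letters are not there. The windows differed in base composition, with 65.6% G and C at Foxd3, 61.6% at Utf1, 28.0% at the outer and 64.4% at the inner start of Sall2, beside a median of 52.4% over all windows.

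Levels were compared between genes as CPM per kb of exon. In WT the order was Utf1 at 99.4 ± 8.57 CPM per kb (SD, n = 2), Sall4 at 24.7 ± 0.306, Zic2 at 11.4 ± 0.112, Zic5 at 6.47 ± 0.405, Pou3f1 at 5.92 ± 0.309, Sall2 at 3.10 ± 0.0768, Grhl2 at 1.02 ± 0.206, Foxd3 at 0.331 ± 0.0151 and Otx2 at 0.0307 ± 0.0314. Each neighbouring pair in that WT order had libraries that did not overlap, although Zic5 and Pou3f1 were close, with lowest and highest libraries at 6.19 and 6.14 CPM per kb. The order was the same in Tbxt delE6/+. In Tbxt delE6/delE6 Pou3f1 moved up to the level of Zic2, at 9.89 ± 1.54 against 9.72 ± 1.52 CPM per kb with overlapping libraries, and Zic5 and Sall2 also overlapped. In Tbxt Insert ASAY Pou3f1 stood above Zic5, and Zic5 and Sall2 overlapped at 5.67 ± 0.326 and 5.35 ± 0.249 CPM per kb. Utf1 and Sall4 stayed at the top and Grhl2, Foxd3 and Otx2 at the bottom in all 4 genotypes.

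**Figure D1:**
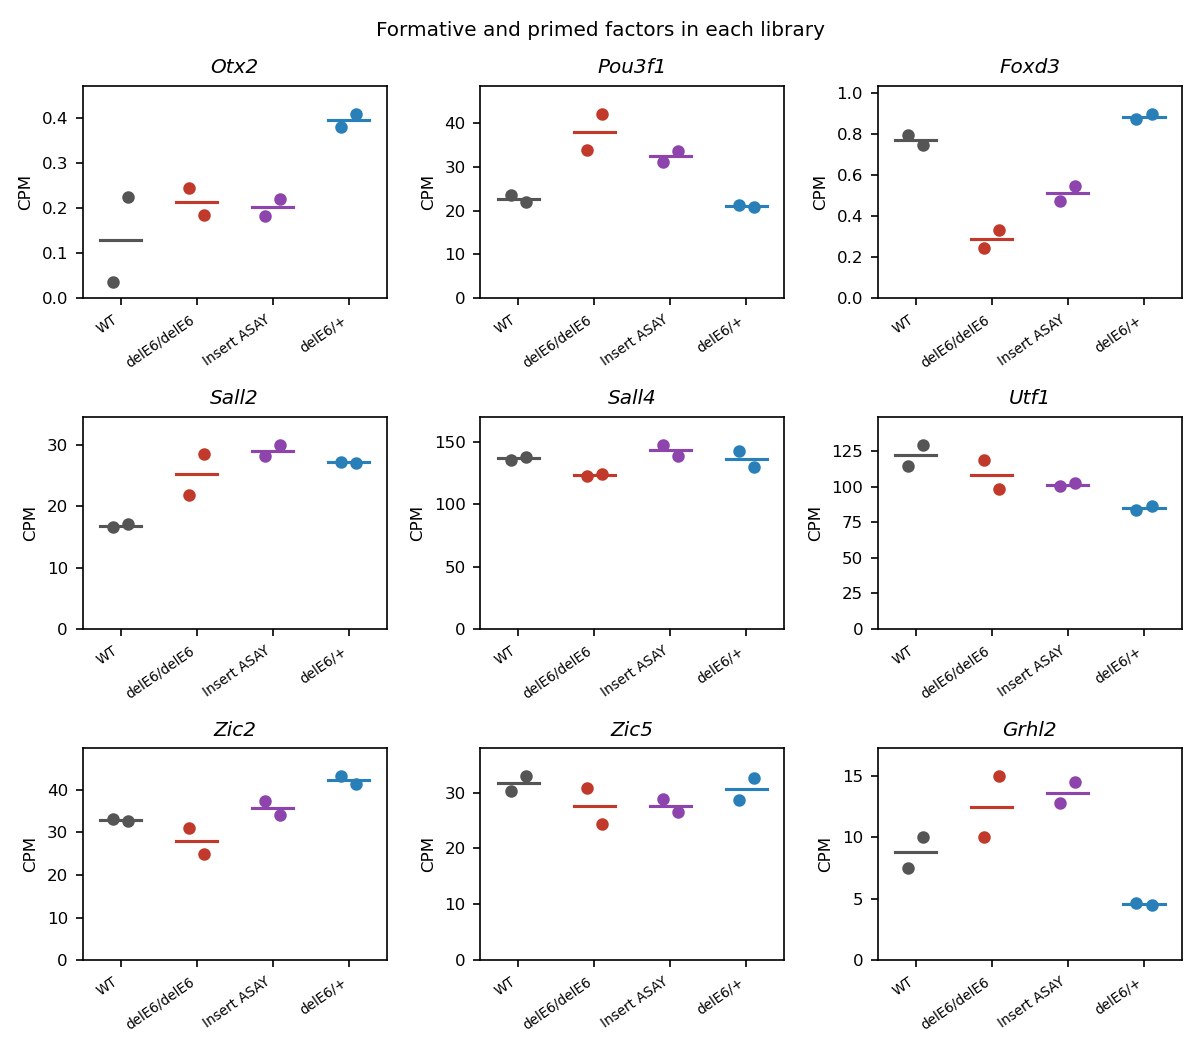
CPM (vertical axis, from 0) of each of the 9 factors in the 4 genotypes; each point is 1 library and each bar the mean of the 2 libraries of a genotype. Sall2 was above its WT libraries in all 6 mutant libraries, Grhl2 was lowest in Tbxt delE6/+, and Otx2 stayed below 0.5 CPM throughout.

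A gene was called in a comparison when its adjusted p was below 0.05 and its log2 fold change above 0.5 in size. All 9 factors passed the filter on low counts, but Otx2 did so only through the Tbxt delE6/+ libraries, and Foxd3 through 6 of the 8 libraries, both of the others being Tbxt delE6/delE6. Against WT, 4 of the 9 factors were called in Tbxt delE6/delE6 (3 higher, 1 lower), 3 in Tbxt delE6/+ (1 higher, 2 lower) and 3 in Tbxt Insert ASAY (3 higher, 0 lower). Among all 17049 genes tested, 12.7% were called in Tbxt delE6/delE6 (6.12% higher and 6.59% lower), 13.5% in Tbxt delE6/+ (6.6% and 6.89%) and 21.3% in Tbxt Insert ASAY (11.5% and 9.85%). Over the 3 lines, Sall2 and Grhl2 were called in all 3, Pou3f1 in 2, Foxd3 and Utf1 in 1 each, and Otx2, Sall4, Zic2 and Zic5 in none. The lower call in Tbxt delE6/delE6 was Foxd3, which did not pass the filter there, so it is a description. Without Otx2 and Foxd3, 7 factors remained. Of these, 3 were called higher and 0 lower in Tbxt delE6/delE6, 1 and 2 in Tbxt delE6/+, and 3 and 0 in Tbxt Insert ASAY. The median log2 fold change of the 9 was -0.15, -0.01 and 0.12 in Tbxt delE6/delE6, Tbxt delE6/+ and Tbxt Insert ASAY, beside medians of all tested genes of -0.01, -0.00059 and -0.0051. The directions differed from factor to factor. The 3 comparisons share the same 2 WT libraries. With 2 libraries per genotype, groups without overlap were common. Libraries did not overlap WT for 5 of the 9 factors in Tbxt delE6/delE6, 7 in Tbxt delE6/+ and 8 in Tbxt Insert ASAY. Among all tested genes the shares were 67.6%, 69.3% and 77.0%, in that order.

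**Figure D2:**
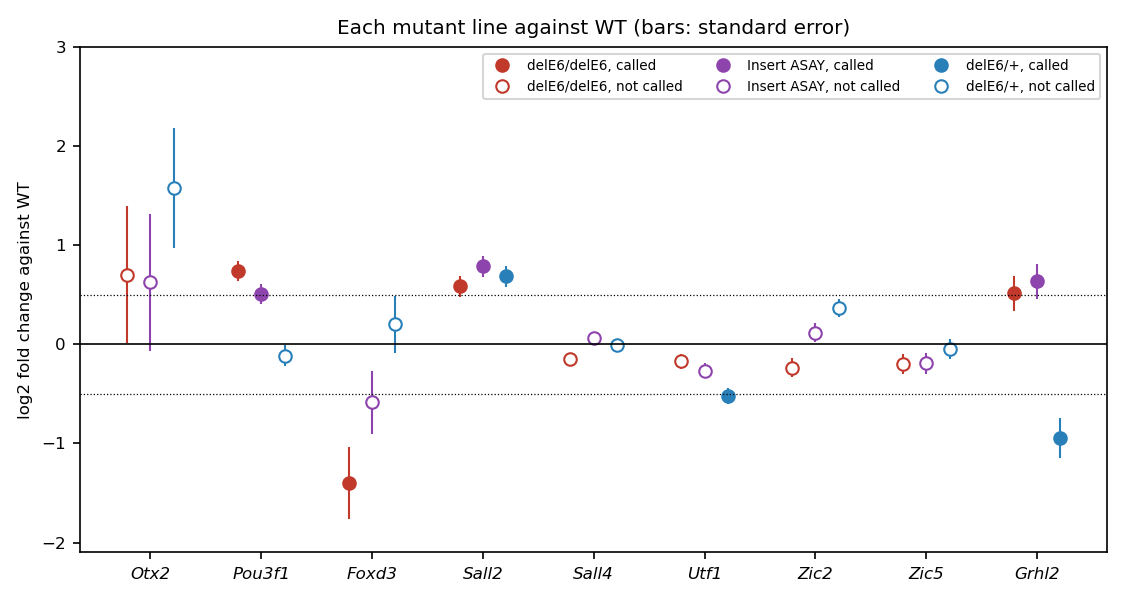
Log2 fold change of each factor against WT (vertical axis) in the 3 mutant lines, with bars for the standard error; filled points were called, open points were not, and dotted lines mark 0.5 in either direction. Sall2 was called higher in all 3 lines, and Grhl2 higher in 2 lines and lower in Tbxt delE6/+. The error bars of Otx2 and Foxd3 are the widest. Otx2 passed the filter only through Tbxt delE6/+, and Foxd3 only through genotypes other than Tbxt delE6/delE6.

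Among the factors that drive the exit from the naive state, Pou3f1 rose in the lines with both alleles edited. Pou3f1 (ENSMUSG00000090125, chromosome 4, 124656807 to 124660655 on GRCm38, plus strand, a gene of 1 exon) encodes the POU-domain factor Oct6. It stood at 23.6 and 22.0 CPM in WT, 33.9 and 42.3 in Tbxt delE6/delE6, 31.2 and 33.7 in Tbxt Insert ASAY, and 21.4 and 20.8 in Tbxt delE6/+. The 4 libraries of the lines edited on both alleles were all above WT, and the heterozygous libraries lay just below it. The log2 fold change against WT was 0.74 ± 0.098 in Tbxt delE6/delE6 (edgeR, adjusted p = 0.000198) and 0.51 ± 0.098 in Tbxt Insert ASAY (edgeR, adjusted p = 0.000993), and -0.11 ± 0.10 in Tbxt delE6/+, which was not called. The Tbxt Insert ASAY value sat at the edge of the fold threshold and dropped under it without WT replicate 2 (0.45), without Tbxt Insert ASAY replicate 2 (0.45) or without Tbxt delE6/delE6 replicate 1 (0.4995).

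Otx2 was nearly silent. Otx2 (ENSMUSG00000021848, chromosome 14, 48657677 to 48673819, minus strand) encodes the homeodomain factor that works with Pou5f1 in the formative epiblast and later patterns the forebrain. It had 1 and 6 reads in WT, 6 and 5 in Tbxt delE6/delE6, 5 and 6 in Tbxt Insert ASAY, and 10 and 10 in Tbxt delE6/+. The heterozygous libraries were above the other 6, while those 6 overlapped. The ratio of Tbxt delE6/+ to WT was 3.07, and the fitted log2 difference of 1.58 ± 0.61 was not called. Because Otx2 passed the filter only through the line in which it was highest, the difference is given as a description and no test of it is read. The ratios in Tbxt delE6/delE6 (1.65, 95% exact counting interval 0.584 to 5.02) and Tbxt Insert ASAY (1.57, 0.554 to 4.76) were not distinguishable from no change at this depth, with intervals for counting error only.

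Foxd3 had its fewest reads in Tbxt delE6/delE6. Foxd3 (ENSMUSG00000067261, chromosome 4, 99656299 to 99658622, plus strand, 1 exon) encodes a forkhead factor that opens or closes enhancers in the epiblast and later marks neural crest. It had 22 and 20 reads in WT, 6 and 9 in Tbxt delE6/delE6, 13 and 15 in Tbxt Insert ASAY, and 23 and 22 in Tbxt delE6/+. The homozygous deletion libraries were the lowest, the insertion libraries lay between them and WT, and the heterozygous libraries were just above WT. The fitted log2 difference from WT was -1.40 ± 0.37 in Tbxt delE6/delE6, -0.59 ± 0.32 in Tbxt Insert ASAY (edgeR, adjusted p = 0.152) and 0.20 ± 0.29 in Tbxt delE6/+. The homozygous difference passed both thresholds, but it rests on 15 reads in a line whose libraries were under the filter's cut-off. Foxd3 passed the filter only through WT, Tbxt Insert ASAY and Tbxt delE6/+, in which it was higher. The homozygous difference is therefore a description and no test of it is read. DESeq2 gave no adjusted p for it, and it was not called without WT replicate 1 (-1.35). Reads on the strand opposite to Foxd3 made up 11.8% to 45.5% of the reads over the gene, the highest share among the 9. With unstranded counts, which include those reads, the Foxd3 value in Tbxt delE6/delE6 was -1.16.

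Sall2 was higher in every mutant line. Sall2 (ENSMUSG00000049532, chromosome 14, 52311172 to 52328762, minus strand) and Sall4 (ENSMUSG00000027547, chromosome 2, 168748332 to 168767943, minus strand) encode zinc-finger factors of the spalt family, of which Sall4 maintains Pou5f1 expression and binds with Nanog. Sall2 measured 16.6 and 17.2 CPM in WT, 21.9 and 28.5 in Tbxt delE6/delE6, 28.1 and 30.0 in Tbxt Insert ASAY, and 27.2 and 27.1 in Tbxt delE6/+. No mutant library overlapped WT, and the 2 clones of Tbxt delE6/delE6 stood further apart than the replicates of any other genotype. The log2 rise was 0.58 ± 0.11 in Tbxt delE6/delE6 (edgeR, adjusted p = 0.00147), 0.79 ± 0.11 in Tbxt Insert ASAY (edgeR, adjusted p = 7.7e-05) and 0.69 ± 0.11 in Tbxt delE6/+ (edgeR, adjusted p = 0.000337). Without replicate 2 of Tbxt delE6/delE6 the value there was 0.38, still past the adjusted p but under the fold threshold. Sall2 was the factor with the same call in all 3 lines, and no pair of mutant lines was called different for it.

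Sall4 changed little. It measured 135.7 and 138.1 CPM in WT, 122.4 and 124.3 in Tbxt delE6/delE6, 147.6 and 138.6 in Tbxt Insert ASAY, and 142.4 and 130.1 in Tbxt delE6/+. The Tbxt delE6/delE6 libraries were the lowest of the 8, with a log2 difference from WT of -0.15 ± 0.054 that passed the adjusted p (edgeR, 0.0444) but not the fold threshold. In Tbxt Insert ASAY and Tbxt delE6/+ the differences were 0.06 ± 0.053 and -0.01 ± 0.053. The other spalt genes showed more movement: Sall3 was called higher in all 3 lines, at log2 differences of 1.01 ± 0.15 in Tbxt delE6/delE6, 1.29 ± 0.15 in Tbxt Insert ASAY and 0.75 ± 0.15 in Tbxt delE6/+. Sall1 was called higher in Tbxt delE6/delE6 (0.77 ± 0.086) and Tbxt Insert ASAY (0.51 ± 0.087), and its difference was 0.08 ± 0.090 in Tbxt delE6/+.

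Utf1 fell in the heterozygous line. Utf1 (ENSMUSG00000047751, chromosome 7, 139943789 to 139945112, plus strand, 2 exons) encodes a chromatin protein that limits the activity of bivalent genes in pluripotent cells. It measured 114.6 and 129.4 CPM in WT, 118.3 and 98.1 in Tbxt delE6/delE6, 100.5 and 102.3 in Tbxt Insert ASAY, and 83.6 and 86.1 in Tbxt delE6/+. The heterozygous libraries were the lowest, the insertion libraries were also under WT, and Tbxt delE6/delE6 overlapped WT. Utf1 fell by 0.52 ± 0.079 on the log2 scale in Tbxt delE6/+ (edgeR, adjusted p = 0.000252), a value that was -0.44 without WT replicate 2. In Tbxt Insert ASAY it was -0.27 ± 0.078 (edgeR, adjusted p = 0.0132), past the adjusted p alone, and in Tbxt delE6/delE6 -0.17 ± 0.078.

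The zinc-finger genes Zic2 and Zic5 lie head to head on chromosome 14, Zic2 (ENSMUSG00000061524) at 122475435 to 122479852 on the plus strand and Zic5 (ENSMUSG00000041703) at 122456795 to 122465677 on the minus strand, with starts 9758 bases apart. Zic2 occupies enhancers in primed cells and acts in neural tube closure. It measured 33.1 and 32.7 CPM in WT, 31.1 and 24.9 in Tbxt delE6/delE6, 37.4 and 34.1 in Tbxt Insert ASAY, and 43.3 and 41.3 in Tbxt delE6/+. The heterozygous libraries were the highest and the homozygous deletion libraries the lowest. Against WT the log2 difference was 0.36 ± 0.091 in Tbxt delE6/+ (edgeR, adjusted p = 0.00836), -0.24 ± 0.094 in Tbxt delE6/delE6 and 0.12 ± 0.092 in Tbxt Insert ASAY, so none passed both thresholds.

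Zic5, which acts in neural crest and neural tube development, measured 30.3 and 33.1 CPM in WT, 30.8 and 24.5 in Tbxt delE6/delE6, 28.8 and 26.6 in Tbxt Insert ASAY, and 28.7 and 32.6 in Tbxt delE6/+. Its log2 differences from WT lay between -0.20 and -0.05, and none passed the adjusted p. Zic2 and Zic5 had a Pearson r of 0.483 over the 8 libraries. Zic1, a neural family member, rose in Tbxt delE6/+ by 1.70 ± 0.21 on the log2 scale. Beside the Zic values, 4 of 8 tested neural progenitor markers were called higher in Tbxt delE6/+, led by Sox1 at a log2 difference of 2.04 ± 0.14, with Irx3 at 0.87 ± 0.13 and Pax6 at 1.31 ± 0.21. The summed level of the 11 listed neural markers was 122.5 to 126.3 CPM in Tbxt delE6/+ and 117.9 to 119.5 in WT. It was higher in the other lines, at 158.5 to 205.5 CPM in Tbxt delE6/delE6 and 126.3 to 135.7 in Tbxt Insert ASAY. None of these markers was at 0 in all libraries, and their part in the Zic values was not tested.

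Grhl2 parted the heterozygous line from the others. Grhl2 (ENSMUSG00000022286, chromosome 15, 37233036 to 37363569, plus strand) encodes the grainyhead-like factor that keeps enhancers of epithelial genes active as naive cells become epiblast. It measured 7.54 and 10.05 CPM in WT, 10.0 and 15.0 in Tbxt delE6/delE6, 12.8 and 14.5 in Tbxt Insert ASAY, and 4.66 and 4.45 in Tbxt delE6/+. The heterozygous libraries were the lowest, the insertion libraries lay above WT, and Tbxt delE6/delE6 replicate 1 overlapped WT while replicate 2 was the highest of all. Grhl2 fell by 0.95 ± 0.20 on the log2 scale in Tbxt delE6/+ (edgeR, adjusted p = 0.00319) and rose by 0.64 ± 0.18 in Tbxt Insert ASAY (edgeR, adjusted p = 0.00966). The latter was not called without WT replicate 1 (0.44) or without Tbxt Insert ASAY replicate 2 (0.54).

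The Grhl2 rise in Tbxt delE6/delE6, 0.52 ± 0.18 (edgeR, adjusted p = 0.0384), was the least firm of the calls. It was lost with unstranded counts (0.47), with only the 2 genotypes in the fit (edgeR, adjusted p = 0.0875), without WT replicate 1 (0.32), without Tbxt delE6/delE6 replicate 2 (0.19), and without either library of Tbxt Insert ASAY or Tbxt delE6/+ (edgeR, adjusted p from 0.0515 to 0.0578). The antisense gene Gm16136, whose start lies 273 bases from that of Grhl2 and which overlaps it, was called higher in Tbxt delE6/delE6 (2.90 on the log2 scale) and Tbxt Insert ASAY (2.92), at no more than 0.660 CPM and with only those lines above the filter's cut-off, so its differences are a description. Reads were counted by strand.

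Epithelial genes were set beside Grhl2 because of its role. In Tbxt delE6/+ 8 of 11 were called lower and 0 higher, with a median log2 difference of -1.15, among them the claudins Cldn6 (-1.78 ± 0.080), Cldn7 (-1.51 ± 0.10) and Cldn4 (-1.33 ± 0.053), which seal tight junctions. In Tbxt delE6/delE6 2 of 11 were called higher, Cldn3 (0.75 ± 0.16) and the trafficking gene Rab25 (1.11 ± 0.36), and 0 lower. In Tbxt Insert ASAY 2 were called higher, again Cldn3 (0.55 ± 0.16) and Rab25 (1.05 ± 0.36), and 4 lower, with a median log2 difference of 0.04. Cdh1, the adherens-junction cadherin, was among the 4 and fell by 0.72 ± 0.058 there while Grhl2 was higher. The summed epithelial level was 1232 to 1345 CPM in Tbxt delE6/+, 1801 to 1918 in Tbxt Insert ASAY, 2347 to 2638 in Tbxt delE6/delE6 and 2495 to 2635 in WT. The sum and Grhl2 were thus both below WT in Tbxt delE6/+. In Tbxt Insert ASAY the sum was below WT and Grhl2 above it, but the list median was near that of WT. Cdh1 and Cldn4 were the largest parts of the sum. Their means were 792.9 and 788.9 CPM in WT and 482.5 and 517.2 in Tbxt Insert ASAY.

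When the mutant lines were compared with each other, Tbxt delE6/+ and Tbxt delE6/delE6 differed in 4 of the 9 factors (2 higher, 2 lower in Tbxt delE6/+), beside 22.2% of all tested genes (11.2% higher, 11% lower). Pou3f1 was lower in Tbxt delE6/+ by a log2 difference of -0.86 ± 0.099 (edgeR, adjusted p = 1.8e-05), Grhl2 lower at -1.46 ± 0.20 and Zic2 higher at 0.60 ± 0.093 (edgeR, adjusted p = 0.000181). The remaining factor of the 4 was Foxd3, at 1.60 ± 0.36. That value is a description, because Foxd3 passed the filter only through genotypes other than Tbxt delE6/delE6. The Zic2 value was 0.44 without Tbxt delE6/delE6 replicate 2 and then not called. Tbxt Insert ASAY was higher than Tbxt delE6/+ in Pou3f1 (0.62 ± 0.10) and Grhl2 (1.58 ± 0.19), which made 2 of 9 called higher and 0 lower, beside 27.5% of all genes (14.6% higher, 13% lower).

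Between Tbxt Insert ASAY and Tbxt delE6/delE6 0 of 9 factors were called by the edgeR test and 0 by DESeq2, beside 5.16% of all tested genes (2.79% higher, 2.38% lower). At an unadjusted p under 0.05 there were 3, Sall4 at a log2 difference of 0.21 ± 0.053, Zic2 at 0.35 ± 0.093 and Pou3f1 at -0.23 ± 0.095. Sall4 and Zic2 also passed the adjusted p without reaching the fold threshold. Without Tbxt delE6/delE6 replicate 1 Zic2 reached 0.51 and was called. For Foxd3 the difference was 0.82 ± 0.40 from 28 reads against 15, so the depth leaves a wide range.

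The factors were also set within the wider pluripotency network. Naive factors, which hold embryonic stem cells in the ground state, had calls in a single direction: 4 of 9 lower and 0 higher in Tbxt delE6/delE6, 5 and 0 in Tbxt delE6/+, and 4 and 0 in Tbxt Insert ASAY, with median log2 differences of -0.45, -0.54 and -0.56. These counts include Prdm14 in Tbxt delE6/delE6 and Tbxt delE6/+, which passed the filter only through WT and Tbxt Insert ASAY libraries, and without it they were 3, 4 and 4 lower of 8. Under the fold threshold some members went the other way past the adjusted p, with Zfp42 at 0.45 ± 0.065 in Tbxt Insert ASAY and Klf2 at 0.30 ± 0.071 in Tbxt delE6/delE6. Tfcp2l1 was lower in all 3 lines (-0.90 ± 0.098, -0.54 ± 0.096 and -1.07 ± 0.098, in that order), and Tbx3 fell in Tbxt delE6/delE6 (-1.60 ± 0.25) and Tbxt Insert ASAY (-1.96 ± 0.26). Esrrb, an orphan nuclear receptor of the naive network, fell in Tbxt delE6/delE6 by 1.04 ± 0.076, and Klf5 fell in Tbxt delE6/+ (-0.73 ± 0.11) and Tbxt Insert ASAY (-1.002 ± 0.11). The orphan receptor Nr0b1 fell in Tbxt delE6/+ by 1.12 ± 0.20 and was 0.41 ± 0.17 in Tbxt Insert ASAY, which did not pass the adjusted p.

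Of the 3 core factors, Nanog fell in all 3 lines, by log2 differences of -1.04 ± 0.15 in Tbxt delE6/delE6, -0.80 ± 0.14 in Tbxt delE6/+ and -0.73 ± 0.14 in Tbxt Insert ASAY. Pou5f1 fell in Tbxt delE6/delE6 (-0.64 ± 0.10) and Tbxt delE6/+ (-0.68 ± 0.10) and was -0.32 ± 0.099 in Tbxt Insert ASAY, past the adjusted p only. Sox2 rose in Tbxt delE6/+ (0.72 ± 0.10) and was -0.29 ± 0.11 and -0.05 ± 0.11 in Tbxt delE6/delE6 and Tbxt Insert ASAY. In all 3 lines Sall2 was called higher where Nanog and Tfcp2l1 were called lower.

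Of 12 other formative and primed genes, 5 were called higher and 2 lower in Tbxt delE6/+ and 1 and 1 in Tbxt Insert ASAY. Cldn6, lower in both lines, is also on the epithelial list, so its falls count in both lists. In Tbxt delE6/delE6 0 were called by edgeR and 0 by DESeq2, with 5 at an unadjusted p under 0.05. Of these, 3 also passed the adjusted p under the fold threshold, Lin28a (0.43 ± 0.051), Lin28b (0.43 ± 0.082) and Tead2 (0.36 ± 0.072). In Tbxt delE6/+ Lef1, a nuclear partner of beta-catenin, rose by 1.23 ± 0.11 on the log2 scale and Lin28a, which blocks maturation of let-7 microRNAs, by 0.81 ± 0.051. The kinase gene Pim2 rose by 0.55 ± 0.089 in Tbxt Insert ASAY, and Cldn6 fell there by 0.73 ± 0.076. Fgf5, a classic primed marker that was picked for mention after its values were seen, was not called against WT in any line, with log2 differences from -2.13 to 1.43. It had at most 22 reads in a library, and 0 and 3 in Tbxt delE6/+, where it did not pass the filter. Its difference was -2.61 between Tbxt delE6/+ and Tbxt delE6/delE6 and 3.56 between Tbxt Insert ASAY and Tbxt delE6/+, both given as a description.

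**Figure D3:**
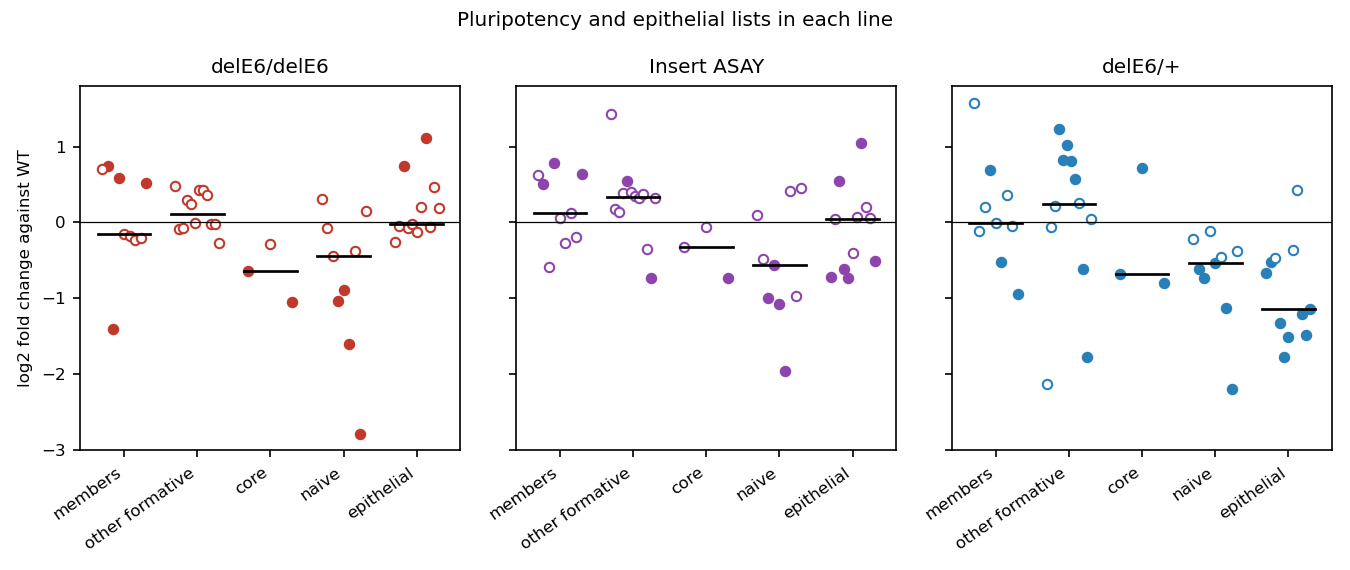
Log2 fold change against WT (vertical axis) of the 9 factors and of 4 other gene lists, 1 panel per mutant line; each point is a gene, filled where called, and black bars are list medians. Naive factors had 4 called genes in Tbxt delE6/delE6, 4 in Tbxt Insert ASAY and 5 in Tbxt delE6/+, each lower, and the epithelial list lay lowest in Tbxt delE6/+. Cldn6 is drawn in both the other formative and the epithelial list.

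Of the family members compared, Pou3f1, Sall4 and Zic2 were the most abundant of their families per length in all 4 genotypes. In WT, Otx1 at 0.206 and 0.110 CPM per kb stood above Otx2, Foxd1 at 0.392 and 0.353 above Foxd3, Grhl3 at 1.67 and 1.59 above Grhl2, and Sall1 at 4.63 and 4.98 above Sall2. Of 14 paralogues, 10 passed the filter, and Crx, Foxd4, Pou3f4 and Zic4 did not. In Tbxt delE6/+ 4 of the 10 were called higher and 0 lower, in Tbxt delE6/delE6 2 and 0, and in Tbxt Insert ASAY 3 and 0. Pou3f2, a neural POU factor, was 2.42 ± 0.49 higher in Tbxt delE6/+ on the log2 scale, from 2 and 5 reads in WT to 20 and 16, while Pou3f1 was not called there. Pou3f2 passed the filter only through that line, so this difference is a description, and without the genes that passed in some genotypes only the counts were 3 higher of 8 in Tbxt delE6/+, 2 in Tbxt delE6/delE6 and 3 in Tbxt Insert ASAY.

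**Figure D4:**
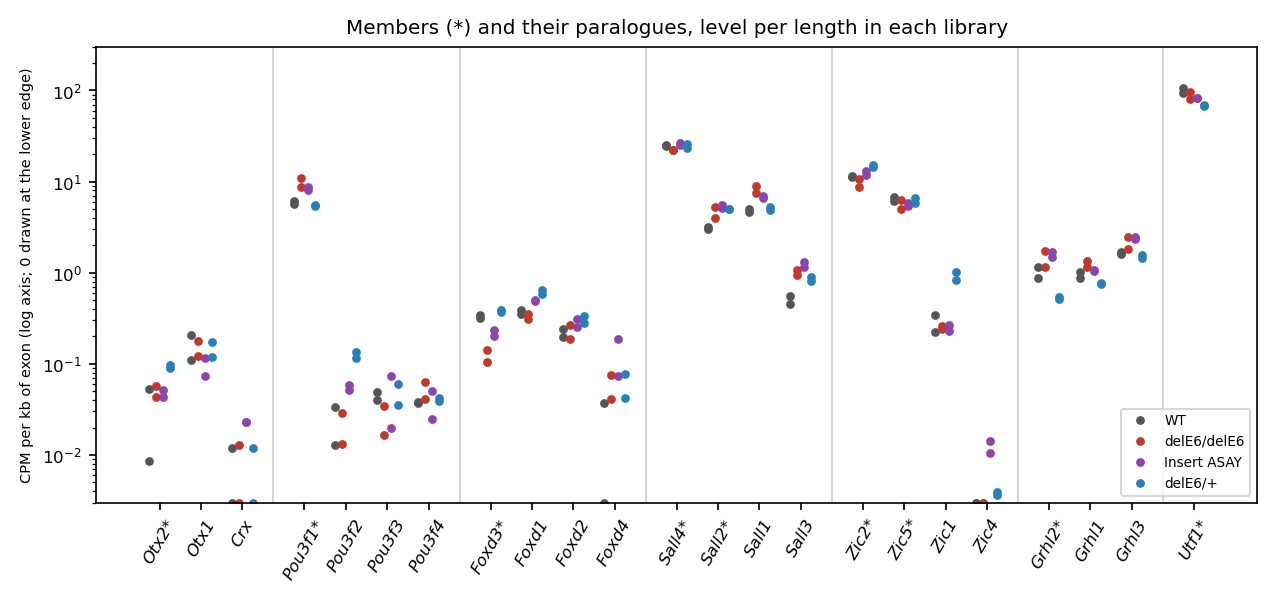
CPM per kb of exon (vertical log axis, values of 0 drawn at the lower edge) of the 9 factors, marked with an asterisk, and their paralogues; each point is 1 library, coloured by genotype. Pou3f1 lies far above the other Pou3f genes, Zic1 is highest in Tbxt delE6/+, and Otx2 is near the bottom of the scale.

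Markers of other cell types moved with the genotypes as well. Of 6 tested fibroblast markers, listed because the insertion was made on feeder cells, which are fibroblasts, although the differentiation itself was run without feeders, 3 were called lower and 0 higher in Tbxt delE6/delE6, 1 lower and 2 higher in Tbxt delE6/+, and 5 lower and 0 higher in Tbxt Insert ASAY. Their sum was 27.1 to 30.6 CPM in WT, 18.2 to 20.8 in Tbxt delE6/delE6, 30.1 to 30.8 in Tbxt delE6/+ and 15.2 to 15.8 in Tbxt Insert ASAY. Pdgfrb, a growth factor receptor of mesenchymal cells, was at -0.91 ± 0.17 in Tbxt delE6/delE6 and -0.98 ± 0.17 in Tbxt Insert ASAY, the collagen gene Col1a1 at -0.77 ± 0.16 and -1.32 ± 0.17 in the same lines, and Col1a2 at 0.66 ± 0.20 in Tbxt delE6/+. Col3a1, called lower in all 3 lines, passed the filter only through WT, and without it the counts were 2, 0 and 4 lower of 5. The pair of lines with lower fibroblast sums was also the pair with higher Pou3f1 and Grhl2, and the part of these cells in the result was not tested.

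Of 6 extraembryonic endoderm markers, 1 was called lower in Tbxt delE6/delE6 (Gata4, -0.67 ± 0.13), 1 higher in Tbxt delE6/+ (Dab2, 1.00 ± 0.16) and 0 in Tbxt Insert ASAY by edgeR or DESeq2, where Gata4 (-0.36 ± 0.13) was the 1 gene at an unadjusted p under 0.05 and passed the adjusted p as well, under the fold threshold. Their sum lay between 12.2 and 20.9 CPM in all libraries. Of 6 tested primitive streak markers out of 12 listed, 1 was called higher and 1 lower in Tbxt delE6/delE6, 1 and 2 in Tbxt delE6/+, and 1 and 1 in Tbxt Insert ASAY, where the higher one was Mixl1, which passed the filter only through Tbxt delE6/delE6 and Tbxt Insert ASAY libraries. Eomes, a T-box factor of the early streak, rose by 0.54 ± 0.12 in Tbxt delE6/delE6 and fell by 0.95 ± 0.13 in Tbxt delE6/+. The streak sum was 15.1 to 28.1 CPM over all libraries, and no gene of any of these lists was at 0 in all 8.

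Pairs of factors followed each other to different degrees over the 8 libraries, which share genotype groups and are described without a test. Pearson r of log2 CPM was highest for Pou3f1 with Grhl2 at 0.838 and lowest for Pou3f1 with Foxd3 at -0.882. The low end of the Foxd3 profile lies in Tbxt delE6/delE6, where Foxd3 did not pass the filter. Sall2 and Utf1 had an r of -0.754, and Zic2 and Grhl2 an r of -0.740. Among the 12837 genes averaging 2 CPM or more, those most like each factor were Fem1b (0.998) and Mrtfa (0.996) for Pou3f1, Armcx4 (0.995) and H1f0 (0.993) for Sall2, and Gpsm3 (0.996) and Exosc3 (0.994) for Grhl2. For Utf1 they were Dnmt3l (0.986) and Mrps18a (0.981), for Zic2 Pklr (0.996) and Selenop (0.978), and for Zic5 Slc25a31 (0.986) and Sdhb (0.945). For Foxd3 they were Aqp3 (0.982) and Gm27529 (0.979), for Sall4 Rpsa-ps12 (0.964) and Aldh5a1 (0.941), and for Otx2 Ppwd1 (0.960) and Pgghg (0.959). These genes were picked for the highest r among 12837, so their values are high by selection. Otx2 had 1 to 10 reads per library and Foxd3 6 to 23, so counting error weighs on both profiles.

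Neighbouring genes within 50000 bases were looked at for changes shared with a factor. Near Sall2, Mettl3 was 0.34, 0.18 and 0.43 on the log2 scale in Tbxt delE6/delE6, Tbxt delE6/+ and Tbxt Insert ASAY, under the fold threshold each time. Near Utf1, Adam8 fell in Tbxt delE6/+ (-1.62), the line in which Utf1 fell, while 6430531B16Rik fell in all 3 lines (-0.94 in Tbxt delE6/delE6, -0.91 in Tbxt delE6/+ and -0.92 in Tbxt Insert ASAY), including both in which Utf1 was not called. Kndc1 (0.94) and Gm16201 (0.53) rose in Tbxt Insert ASAY. Near Sall4, Atp9a fell in Tbxt delE6/delE6 (-0.73).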

How the data were processed

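Poly(A) RNA was converted to strand-specific libraries. The authors aligned the reads to mm10 with STAR (version 2.7.2a in the submitters' processing notes) and deposited its counts of reads per gene, 1 file per library, unstranded and for each strand. The column for the strand opposite to that of the first read, where the kit places transcripts, was used. Reads assigned to no gene, 26.2% to 29.0% in the 7 files that list them, were left out. Gene identifiers were matched without their version to GENCODE M21 (48058 of 48440). Counts were tested with edgeR 4.0.16 (R 4.3.3; TMM, filterByExpr, glmQLFit and glmQLFTest) in 1 fit of all 8 libraries, with Benjamini-Hochberg adjustment over 17049 genes. Genes were called at adjusted p below 0.05 and log2 fold change past 0.5, thresholds the study used with DESeq2. Fold changes are given ± standard error.

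The 9 factors and the gene lists were chosen with earlier results of these data known. Named beside them are Tbxt, the 3 core factors, up to 3 called genes with the smallest adjusted p per other list and mutant line, the 2 genes most alike in each factor's profile, and neighbours within 50000 bases. An item of the lists is not reported here. Alternatives were DESeq2 1.42.0, its size factors, no filter, unstranded counts, fits of 2 genotypes, a replicate block and leaving out each library.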

Additional observations from a re-analysis of the deposited data

Results flagged for a closer look

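When the difference itself was taken from the edgeR fit, mutant lines differed past both thresholds in 4 of the factors, with Foxd3 as a description only. For Pou3f1, Tbxt delE6/+ differed from Tbxt delE6/delE6 by -0.86 on the log2 scale, and Tbxt Insert ASAY from Tbxt delE6/+ by 0.62. For Foxd3, Tbxt delE6/+ differed from Tbxt delE6/delE6 by 1.60, with 15 reads in the homozygous line and 45 in the heterozygous line. Foxd3 did not pass the filter in the homozygous line, so no test of this value is read. For Zic2 the same comparison gave 0.60, although neither line was called against WT. For Grhl2, Tbxt delE6/+ differed from Tbxt delE6/delE6 by -1.46, and Tbxt Insert ASAY from Tbxt delE6/+ by 1.58. These differences share the Tbxt delE6/+ libraries, so they are not separate observations. Against WT, the effects in Tbxt delE6/+ on Pou3f1 (-0.11 ± 0.10) and Foxd3 (0.20 ± 0.29) did not pass the test, and Grhl2 was called in opposite directions.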

How the results depend on the processing

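No value changed direction among those called. Leaving out 1 library at a time gave 2 to 4 called factors in Tbxt delE6/delE6 against WT, 1 to 3 in Tbxt Insert ASAY against WT and 0 to 1 between those lines; the low ends came without WT replicate 1 or Tbxt delE6/delE6 replicate 2 (2 factors each) and without Tbxt Insert ASAY replicate 2 (1, Sall2). In such fits the lone library is assumed to vary like the other genotypes. Of 753 single-factor values under the alternatives, 731 kept their side of the thresholds, 17 lost it and 5 gained it. DESeq2 gave no adjusted p for Foxd3 in Tbxt delE6/delE6 against WT or for Otx2 in any comparison with WT. Between Tbxt Insert ASAY and Tbxt delE6/delE6, 880 genes were called, 582 with DESeq2 and 572 with only the 2 genotypes in the fit. Replicate numbers did not pair the libraries, with correlations of deviations from -0.10 to 0.067. With the replicate block the called factors were 4, 3 and 3 against WT, 4 between Tbxt delE6/+ and Tbxt delE6/delE6, 0 between Tbxt Insert ASAY and Tbxt delE6/delE6 and 2 between Tbxt Insert ASAY and Tbxt delE6/+, as without it. A crossed pairing of Tbxt Insert ASAY with Tbxt delE6/delE6, chosen after seeing the data, gave 0 factors and 862 genes. Depth limits Otx2 and Foxd3, which had at most 23 reads per library.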
